A study of Homo sapiens with 4 samples.

Results

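Keratins are the intermediate filament proteins of epithelial cells. The genes described here are the 10 keratins KRT7, KRT8, KRT10, KRT18, KRT19, KRT20, KRT23, KRT80, KRT81 and KRT86, chosen by gene symbol as a set of simple epithelial and hair keratins. Of these, 7 had a probe set with that symbol on the array used, 1 probe set each, out of 17687 named genes. KRT20 and the hair keratins KRT81 and KRT86 were not analysed here, so the values below are those of simple epithelial, epidermal and related keratins. Hair keratins enter only through other members of the family.

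RNA came from the Li-7 and HEP-G2 cell lines, both established from human liver cancers, with 1 Affymetrix array in each of 4 groups. Li-7 cells grown in RPMI-1640 received either a miR-4730 mimic (3 nM, given by lipid transfection 24 h after seeding) or the supplier's negative control #1 oligonucleotide. HEP-G2 cells grown in DMEM received the same mimic at 3 nM or the same control. Both media held serum, and the labels state neither the control's concentration nor the time of harvest. The medium differs with the line, so the effects of line and medium cannot be told apart. No group had a second array, so the spread between cultures was not measured, and the number of arrays limits the precision of every value.

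Keratins assemble as pairs of a type II (basic) and a type I (acidic) chain, and the chains are stabilised by their partner. KRT8 with KRT18 is the pair of simple epithelia and the main keratin pair of normal hepatocytes, whereas bile duct cells and hepatic progenitor cells also carry KRT7 and KRT19. For that reason KRT7 and KRT19 are used in pathology to tell biliary from hepatocytic tumours of the liver.

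The mimic copies the mature microRNA below, whose seed (bases 2 to 8, in capitals) is the part that pairs with target transcripts. It is shown because this seed defines the treatment set against the control in each line.
hsa-miR-4730: cUGGCGGAgcccauuccaugcca
The sequence is that of RefSeq (GRCh38.p14, chr17:80419427-80419449, plus strand). None of the other mature human microRNAs in that table, which holds 2545 mature entries, shared the seed.

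All values are those the authors deposited per probe set, on a scale that resembles log2, and differences are in its units. Neither log base nor normalization is stated in the labels. The values ran up to between 18.12 and 18.31 on the 4 arrays. Among the 612 probe sets for negative controls, the 95th percentile lay between 7.99 (Li-7 mimic) and 8.72 (Li-7 control), and it is called the background limit below. HMGA1, the gene the study names as the target of miR-4730, stood at 10.91 with the mimic against 14.93 with the control in Li-7. In HEP-G2 it stood at 11.61 with the mimic against 14.79 with the control. It fell by 3.59 in the limma model (SE 0.29, adjusted p = 0.0241).

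The hepatocyte pair was bright on every array and brighter in Li-7. KRT8, the type II chain of the pair, had values of 17.05 (mimic) and 17.12 (control) in Li-7, against 16.45 (mimic) and 16.03 (control) in HEP-G2. KRT18, its type I partner, had 16.37 (mimic) and 16.51 (control) in Li-7, against 15.45 (mimic) and 14.99 (control) in HEP-G2. Both Li-7 arrays lay above both HEP-G2 arrays for each gene, and all these values lay above every negative control probe set. Li-7 exceeded HEP-G2 by 0.85 for KRT8 (SE 0.26, 1.80-fold, adjusted p = 0.0354) and by 1.23 for KRT18 (SE 0.27, 2.34-fold, adjusted p = 0.00934). These p values come from a limma model with line and treatment, adjusted by Benjamini-Hochberg over the 12381 genes tested. In that model the mimic and control arrays of a line stand in for replicates, which they are not. The KRT8 call was lost after centring each array on its median (0.72, adjusted p = 0.0607) and after cyclic loess (0.80, adjusted p = 0.0501). It was also lost with treatment left out of the model (adjusted p = 0.0786). With an ordinary t statistic in place of the moderated one, none of the line differences given here passed. The values of KRT8 lie close to the brightest on each array. In the RefSeq order of protein-coding genes KRT8 and KRT18 are direct neighbours.

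**Figure D1:**
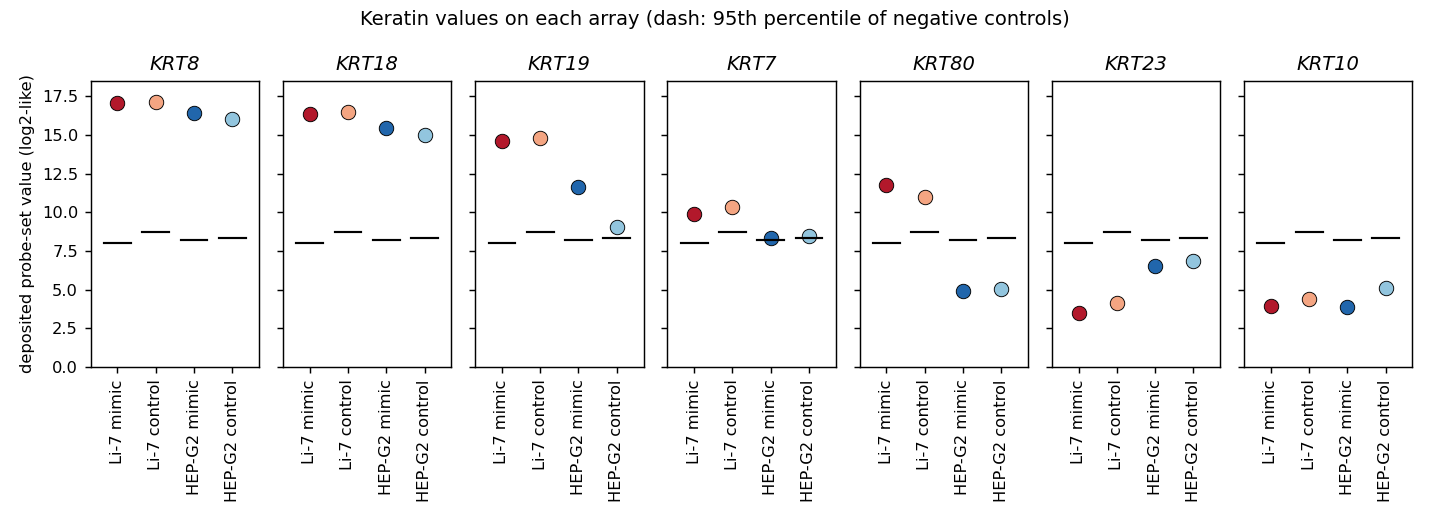
Deposited probe-set values (log2-like, vertical axis) of 7 keratins on the 4 arrays, 1 point per array, with a dash at the background limit (95th percentile of negative controls) of that array. KRT8 and KRT18 are bright on all arrays and higher in Li-7, as is KRT7, and KRT19 and KRT80 separate the lines most widely. KRT23 and KRT10 lie under the dash everywhere, and heights are not comparable between genes.

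KRT19, a type I keratin of bile duct and progenitor cells that lacks most of the usual tail domain, differed far more. Its values were 14.61 (mimic) and 14.84 (control) in Li-7, against 11.66 (mimic) and 9.07 (control) in HEP-G2. From high to low came the control and then the mimic array of Li-7, followed by the mimic and then the control array of HEP-G2. The gap between the Li-7 arrays was much smaller than that between the HEP-G2 arrays. The HEP-G2 control array was the nearest to background, at 0.73 above its limit of 8.35. Li-7 exceeded HEP-G2 by 4.36 (SE 0.59, 95% interval 2.96 to 5.76, limma adjusted p = 0.00107). That estimate averages 2 unlike values, 2.95 between the mimic arrays and 5.77 between the control arrays.

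KRT7, the type II keratin of ducts and glands, was also higher in Li-7. It had values of 9.87 (mimic) and 10.38 (control) in Li-7, against 8.35 (mimic) and 8.44 (control) in HEP-G2. The lines did not overlap, but both HEP-G2 values stood barely over the background limits of 8.20 (mimic) and 8.35 (control). The line difference was 1.73 (SE 0.26, 3.31-fold, limma adjusted p = 0.00165).

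KRT80, a type II keratin found in many epithelia near desmosomes, was seen above background in Li-7 alone. It stood at 11.77 (mimic) and 10.99 (control) in Li-7, against 4.89 (mimic) and 5.03 (control) in HEP-G2. The HEP-G2 values lay within the range of the negative controls, above 64.7% (mimic) and 63.6% (control) of them, so that only a bound holds there. Against the background limit of the HEP-G2 arrays, KRT80 averaged at least 8.60-fold higher in Li-7 over the mimic and control arrays. The measured difference was 6.42 (SE 0.30, limma adjusted p = 8.75e-06).

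KRT23, a type I keratin of low abundance in most epithelia, was under the background limit on all arrays. Its values were 3.51 (mimic) and 4.12 (control) in Li-7, against 6.56 (mimic) and 6.88 (control) in HEP-G2. The HEP-G2 arrays were higher in both treatments, yet with all 4 values under that limit no fold is given. The HEP-G2 values of KRT23 exceeded 87.3% (mimic) and 88.9% (control) of the negative controls, against 34.3% (mimic) and 50.2% (control) for the Li-7 values. The limma test called KRT23 lower in Li-7, but the call compares values under the limit, and KRT23 passed the filter on low values through HEP-G2 alone, so nothing is read from it.

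KRT10, the type I keratin of the upper epidermal layers, had values of 3.95 (mimic) and 4.36 (control) in Li-7, against 3.85 (mimic) and 5.10 (control) in HEP-G2. All lay under the background limit, the highest of them above 64.5% of the negative controls. Its mean over the arrays fell short of the filter on low values (4.90), so it was not tested.

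Of the 6 keratins tested, 5 were higher and 1 was lower in Li-7, where 24.3% and 20.7% of the genes tested were called higher and lower. With 44.9% of those genes called in either direction, a call alone says little about a gene. The 1 lower was KRT23, whose values all lay under the background limit. Between single arrays, 6 of the 6 values differed by at least 1 unit between the control arrays, KRT23 with both values under the background limit, against 35.9% of the genes tested. Between the mimic arrays 4 of 6 did so, again with KRT23 among them, against 39.0%, since KRT8 (0.60) and KRT18 (0.93) stayed under that size.

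**Figure D2:**
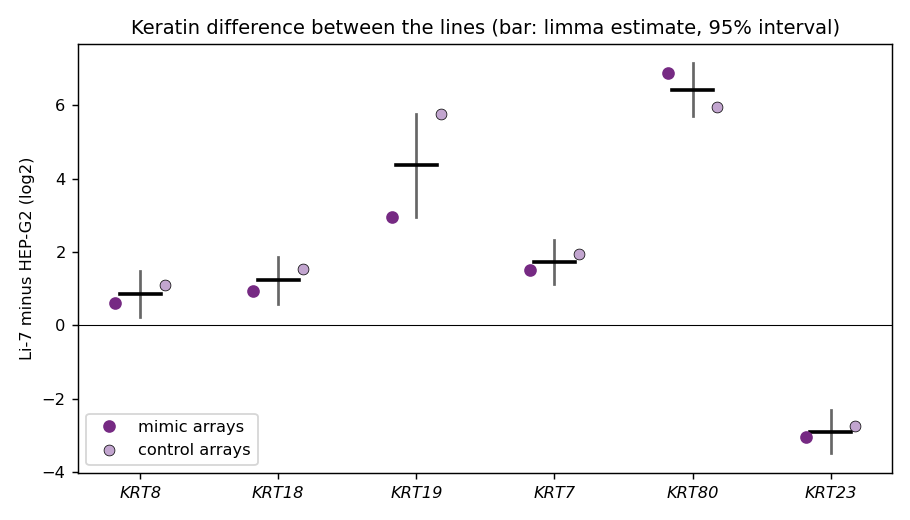
Li-7 minus HEP-G2 difference (log2, vertical axis) for the 6 keratins tested, with 1 point for the mimic arrays, 1 for the control arrays, and the limma estimate with its 95% interval as a bar and line. The difference is positive for KRT8, KRT18, KRT19, KRT7 and KRT80 and negative for KRT23 (under the background limit on all arrays), and the points lie farthest apart for KRT19, at 2.95 and 5.77.

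The comparison of mimic with control asks whether miR-4730 alters the keratin profile of these cells. No listed keratin passed the limma test of a change common to both lines (0 of 6, also 0 at an unadjusted p under 0.05), where 0.420% of the genes tested passed. The mean change of KRT8 was 0.18 (95% interval -0.44 to 0.80) and that of KRT18 was 0.16 (-0.48 to 0.80). That of KRT7 was -0.29 (-0.90 to 0.31), that of KRT80 was 0.33 (-0.39 to 1.04) and that of KRT23 was -0.46 (-1.06 to 0.13). The limma intervals of KRT8, KRT18 and KRT7 lay within 1 unit of 0, the size of a 2-fold change. Their error has 5.85 prior degrees of freedom drawn from all genes tested against 1 residual one. The model takes disagreement between the lines as the error, so with 1 array per group a common 2-fold change is not excluded. KRT19 had a mean change of 1.18 with an interval of -0.22 to 2.58 (limma adjusted p = 0.323), wide because its lines disagreed.

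In HEP-G2, KRT19 stood 2.59 higher with the mimic, 6.02-fold between single arrays and the 17th highest difference of the 12381 genes tested there. It was the 1 of 6 keratins that differed at least 2-fold, against 12.0% of the genes tested. KRT8 and KRT18 were higher by 0.43 and 0.46 in HEP-G2, differences that 45.7% and 42.5% of the genes exceeded in size. KRT7 (-0.08), KRT80 (-0.14) and KRT23 (-0.32) were slightly lower on the mimic array. The untested KRT10 differed by -1.24, but lay under the background limit on both arrays.

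In Li-7, 0 of 6 keratins differed at least 2-fold, against 7.84% of the genes tested. KRT80 was highest above its control, by 0.79 (1.73-fold), a size that 14.2% of the genes exceeded. KRT8 (-0.07), KRT18 (-0.14) and KRT19 (-0.23) lay close to their controls, and KRT7 (-0.51) and KRT23 (-0.61) were lower. These differences between single arrays have no test.

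The sign of the mimic difference was opposite in the lines for 4 of 6 keratins (KRT8, KRT18, KRT19 and KRT80), against 34.9% of the genes tested. For KRT19 the change in HEP-G2 exceeded that in Li-7 by 2.82, and 0.178% of the genes had a larger gap in size. For KRT18 (0.60) and KRT8 (0.50) the gaps were exceeded by 29.8% and 38.2% of the genes. Whether the lines differ in their response could not be tested with 1 array per group.

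**Figure D3:**
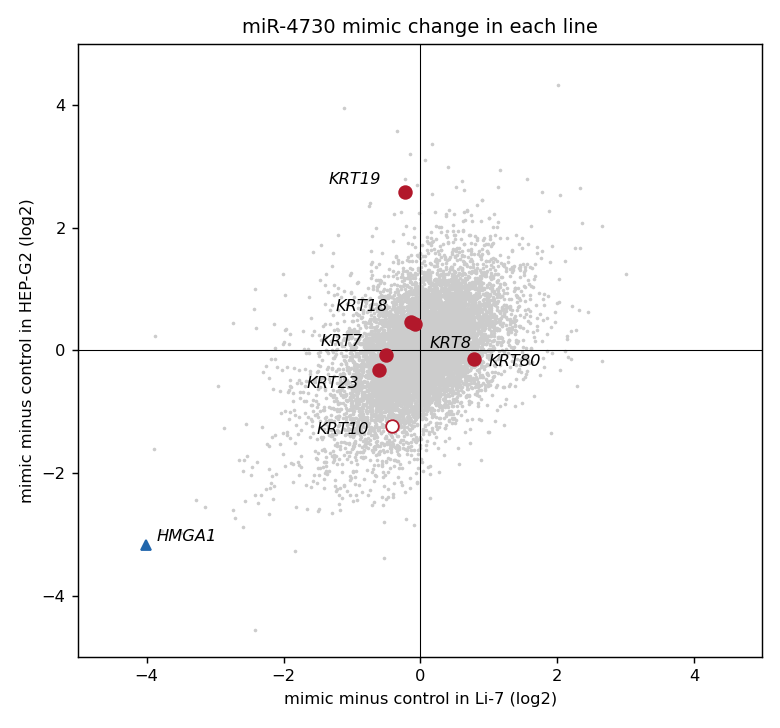
Mimic minus control difference (log2) in Li-7 (horizontal axis) and HEP-G2 (vertical axis) for the 12381 genes tested (grey), the 6 keratins tested (filled), KRT10 (open, not tested) and HMGA1 (triangle). KRT19 stands apart, with -0.23 for Li-7 against 2.59 for HEP-G2, while the other tested keratins lie within 1 unit of 0 in both lines.

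The rest of the keratin family was near background. Of 44 other keratin genes looked for, 37 had a probe set and 7 were not analysed here. Their values ran from 2.39 to 8.19. Of the 37, 36 lay under the background limit on all arrays, against 9190 of all 17687 named genes. The exception, KRT16, a type I keratin of stressed and wounded epidermis, stood at 8.14 (mimic) and 8.19 (control) in Li-7, against 8.02 (mimic) and 7.88 (control) in HEP-G2. It passed the limit on the Li-7 mimic array alone, where that limit was lowest, and its values hardly differed. The basal epidermal pair KRT5 and KRT14 stayed at or under 4.80 and 3.53 on every array. Among the hair keratins, 13 of 17 had a probe set and 0 passed the limit on any array, with values from 2.39 to 5.81. Of the other keratins, 7 were tested and 0 passed the limma test of either the mimic change or the line difference, for which 0.420% and 44.9% of all genes were called.

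**Figure D4:**
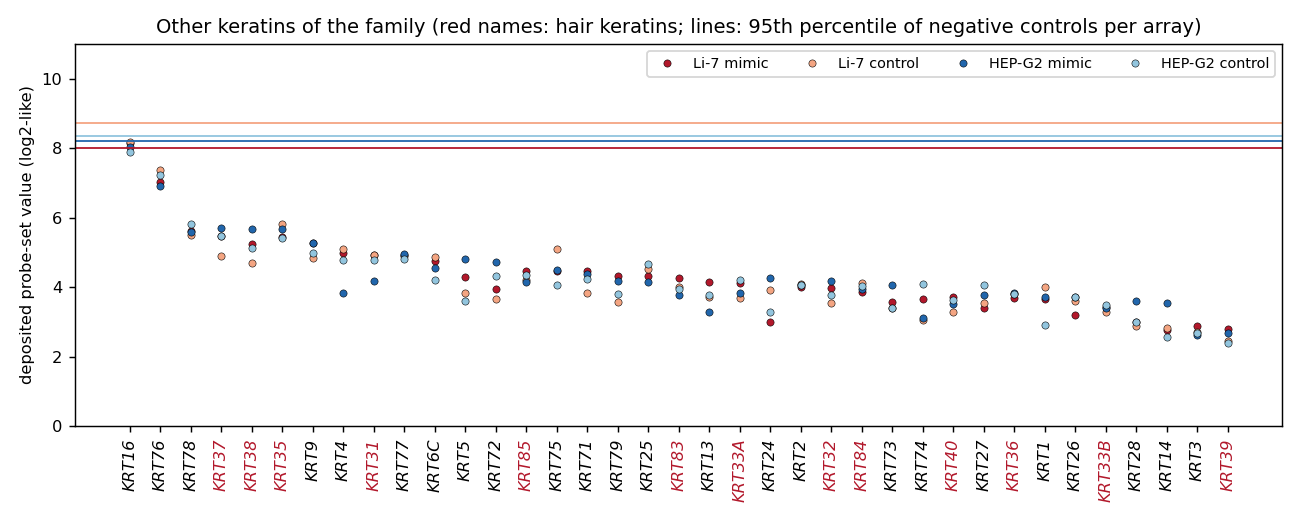
Deposited probe-set values (log2-like, vertical axis) of the other 37 keratins with a probe set on the 4 arrays, with the 95th percentile of the negative controls of each array as a line in that array's colour. All points but the KRT16 value on the Li-7 mimic array lie under their own line, and the hair keratins (red names) do not exceed 5.81.

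Keratin filaments are anchored at desmosomes and hemidesmosomes, and the genes of these junctions were read from a list of 22, of which 18 were tested. None passed the limma test of the mimic change, which 0.420% of all genes passed, with a median mean change of 0.28 against 0.03 over all genes tested. Among them DST, a plakin linker, stood 0.97 higher with the mimic in Li-7 and 1.62 higher in HEP-G2. ITGA6, the alpha chain of the hemidesmosome integrin, stood 0.80 higher in Li-7 and 1.73 higher in HEP-G2. FAM83H, which helps to organise keratin filaments, had mimic differences of -1.86 (Li-7) and -0.70 (HEP-G2). EPPK1, epiplakin, was higher by 1.71 in Li-7 and by 0.40 in HEP-G2. FAM83H was above the background limit on the Li-7 control array alone and EPPK1 on the Li-7 mimic array alone. Adjusted p values of these 4 were 0.0895 (DST), 0.108 (ITGA6), 0.124 (FAM83H) and 0.179 (EPPK1).

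Between the lines, 11 of the 18 junction genes were higher and 3 lower in Li-7 (limma, adjusted over all genes tested), where 24.3% and 20.7% of all genes were called higher and lower. Of the 11, PPL lay under the background limit on all arrays, and DSC3, EPPK1 and FAM83H passed it on 1 array each. PPL and ITGB4 passed the filter on low values through Li-7, so the count is not free of that filter. Higher in Li-7 was PLEC, plectin, which links keratin to junctions, with 12.73 (mimic) and 12.53 (control) against 9.15 (mimic) and 8.14 (control) in HEP-G2. ITGB4, the partner of ITGA6, had 13.33 (mimic) and 12.10 (control) in Li-7, against 3.89 (mimic) and 5.11 (control) in HEP-G2. Averaged over the mimic and control arrays, ITGB4 was at least 21.7-fold higher in Li-7. The 3 genes that were lower in Li-7 were DSP, desmoplakin, which ties keratin to desmosomes, JUP, plakoglobin, and the desmosomal cadherin DSC2. DSP stood at 11.27 (mimic) and 11.40 (control) in Li-7, against 14.80 (mimic) and 14.09 (control) in HEP-G2, a difference of -3.11 (adjusted p = 0.000187). The junction genes thus did not run one way with the keratins of Li-7.

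Other intermediate filament genes were likewise without a call for the mimic change (0 of 9 tested, against 0.420% of all genes), and 6 were called higher in Li-7, against 24.3%. Of these, NEFL and BFSP1 lay under the background limit on all arrays, and NEFL and VIM passed the filter on low values through Li-7. VIM, the mesenchymal filament protein vimentin, had 15.42 (mimic) and 15.13 (control) in Li-7, against 5.49 (mimic) and 4.16 (control) in HEP-G2. Averaged over the mimic and control arrays, that is at least 128-fold higher in Li-7, the HEP-G2 values being under the background limit. The nuclear lamin genes LMNA and LMNB1 were higher in Li-7 by 1.58 and 1.62 (limma adjusted p = 0.00198 and 0.0101). LMNB1 had mimic differences of -0.38 (Li-7) and -1.79 (HEP-G2) (adjusted p = 0.181 for the common change).

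Of 18 transcription factors of epithelial cells, 11 were tested, with 0 calls for the mimic (0.420% of all genes) and 6 called higher in Li-7 (24.3% of all genes). GRHL2 and KLF4, among the 6, lay under the background limit on all arrays, and TFAP2A passed it on the Li-7 mimic array alone. KLF4, EHF and ELF3 passed the filter on low values through Li-7. KLF5, a factor of proliferating epithelia, had 13.60 (mimic) and 13.46 (control) in Li-7, against 7.71 (mimic) and 5.87 (control) in HEP-G2, both HEP-G2 values being under the background limit. EHF, an epithelial ETS factor, had 12.07 (mimic) and 12.59 (control) in Li-7, against 3.25 (mimic) and 3.52 (control) in HEP-G2. ELF3, another epithelial ETS factor, had 9.77 (mimic) and 10.01 (control) in Li-7, against 4.63 (mimic) and 4.73 (control) in HEP-G2. The lower bounds on the line difference, averaged over the mimic and control arrays, were 38.2-fold for KLF5, 16.6-fold for EHF and 3.06-fold for ELF3.

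The keratin profile was set beside markers of the cell types it is used to tell apart. Of 9 hepatocyte markers measured, 2 (mimic) and 0 (control) passed the background limit in Li-7, against 9 (mimic) and 9 (control) in HEP-G2. Among all 17687 named genes, 7557 (mimic) and 6494 (control) passed in Li-7, against 7066 (mimic) and 6966 (control) in HEP-G2. These totals are the reference for the other marker counts below as well. ALB, serum albumin, stood at 7.19 (mimic) and 7.30 (control) in Li-7, against 12.21 (mimic) and 12.47 (control) in HEP-G2. AFP, the fetal serum protein, stood at 3.92 (mimic) and 4.75 (control) in Li-7, against 17.17 (mimic) and 16.71 (control) in HEP-G2. The defining hepatocyte genes measured were thus under the limit on the Li-7 control array, where that limit (8.72) was the highest, with APOH nearest to it at 8.31. The 2 that passed on the Li-7 mimic array were SERPINA1 (8.40) and APOH (8.86), where the limit of 7.99 was the lowest of all.

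Of 9 biliary markers, 7 (mimic) and 7 (control) passed in Li-7, against 4 (mimic) and 4 (control) in HEP-G2. CD24 had 14.39 (mimic) and 14.85 (control) in Li-7, against 5.58 (mimic) and 5.82 (control) in HEP-G2, where it was under the limit. EPCAM, an epithelial adhesion protein, had 14.59 (mimic) and 15.13 (control) in Li-7, against 12.81 (mimic) and 13.15 (control) in HEP-G2. SOX9, a factor of bile duct cells, had 10.47 (mimic) and 9.59 (control) in Li-7, against 10.27 (mimic) and 11.41 (control) in HEP-G2. In HEP-G2, where KRT19 was higher with the mimic, the biliary markers did not run one way. Of the 4 above the limit there, CLDN4 (1.23) and PROM1 (0.44) were higher on the mimic array, and EPCAM (-0.33) and SOX9 (-1.14) were lower. The other biliary markers, CD24, SPP1, CFTR, AQP1 and MUC1, lay under the limit on both HEP-G2 arrays, so most values in the mean are background. The mean over the 9 biliary markers was 7.80 (mimic) against 7.82 (control) in HEP-G2. Over the 9 hepatocyte markers it was 15.39 (mimic) against 14.92 (control) in that line.

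Squamous markers, 9 of which were measured, had a mean of 5.81 (mimic) and 5.71 (control) in Li-7, against 5.82 (mimic) and 5.36 (control) in HEP-G2. Of these, 3 (mimic) and 1 (control) passed the limit in Li-7 and 1 on each HEP-G2 array, SFN being above it on all 4 arrays. Mesenchymal, endothelial and leukocyte markers, 11 in number, passed for 4 genes on each Li-7 array and 2 on each HEP-G2 array. VIM, the matrix proteoglycan LUM, COL1A2, a fibroblast collagen, and the macrophage marker CD68 passed in Li-7, and COL1A2 and CD68 in HEP-G2. Some barely passed, as LUM on the Li-7 control array (8.75 against 8.72) and CD68 on the HEP-G2 mimic array (8.24 against 8.20). COL1A2 was close to the limit on the control arrays, at 8.92 against 8.72 (Li-7) and 8.62 against 8.35 (HEP-G2). The other 7, among them PTPRC of leukocytes and PECAM1 of endothelium, were under the limit on all arrays. The part of these differences in the keratin values was not tested.

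The genes whose pattern over the 4 arrays was nearest to that of a keratin were found by Euclidean distance after centring each gene on its own mean, for the 3 keratins with the widest range. For KRT80 they were GPR180 (distance 0.20), SSBP2 (0.32) and IFI16 (0.34), against a range of 6.89 for KRT80 itself. The HEP-G2 values of KRT80, GPR180, SSBP2 and IFI16 all lay under the background limit. For KRT23, with a range of 3.37 and every value under that limit, the nearest were CA13 (0.12), HS3ST3A1 (0.16) and NUDT7 (0.17). For KRT19, with a range of 5.77, the nearest were more distant, at 0.491 (VGLL3), 0.615 (CPA4) and 0.634 (MFSD6). VGLL3, a cofactor of TEAD transcription factors, stood at 8.85 (mimic) and 9.60 (control) in Li-7, against 6.32 (mimic) and 3.96 (control) in HEP-G2. CPA4, a carboxypeptidase, stood at 10.51 (mimic) and 10.63 (control) in Li-7, against 7.05 (mimic) and 5.32 (control) in HEP-G2. MFSD6 stood at 11.11 (mimic) and 10.50 (control) in Li-7, against 8.03 (mimic) and 5.26 (control) in HEP-G2. The HEP-G2 values of VGLL3, CPA4 and MFSD6 lay under the background limit too, and all these genes were chosen for their likeness. Over 4 arrays such nearness is a description of these samples.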

How the data were processed

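The authors deposited 1 table of log2-like probe-set values for 4 arrays. Per the submitters' processing notes it was made with Affymetrix Expression Console and Transcriptome Analysis Console. Versions, settings, normalization and genome build are not stated there, so no array coordinates are printed. All 4 columns were used. Of 24351 probe sets, 17709 had 1 gene symbol in the platform annotation, and all of them matched a RefSeq gene by Entrez identifier. The brightest probe set by mean over the arrays stood for a gene (20 of 17687 genes had several). A gene was tested if its mean reached the 30th percentile of named genes (4.90), which held for 12381.

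A linear model with line and treatment was fitted in R 4.3.3 with limma 3.58.1 (lmFit, eBayes, Benjamini-Hochberg, threshold 0.05). It leaves 1 residual degree of freedom and 5.85 prior ones, and measures disagreement between lines, not between cultures. Differences within a line have no test. Bounds use the background limit (95th percentile over negative controls). They average the mimic and control arrays of a line, so the bound for 1 treatment alone can be lower. The fit was also run on data simulated from its own model, with independent noise and the same mimic response in both lines. That run cannot check the error of the real arrays.

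The members, gene lists and tests were chosen with earlier results of these data known. Genes were named from the listed keratins, other keratins above the background limit, HMGA1 and the 3 nearest patterns for 3 keratins. From each list came members called and up to 4 with the largest mean mimic change, though not every such member is named. The basal pair KRT5 and KRT14 and the markers SOX9, PTPRC and COL1A2 were named after their values were seen.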

Additional observations from a re-analysis of the deposited data

Results flagged for a closer look

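The mimic difference ran in opposite directions in the lines for 4 keratins, a gap that went untested with single arrays. The change in HEP-G2 minus that in Li-7 was 2.82 for KRT19, 0.602 for KRT18, 0.501 for KRT8 and -0.925 for KRT80. Those of KRT8, KRT18 and KRT80 rest on at least 1 difference under 0.15 in size.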

How the results depend on the processing

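With an ordinary t statistic, 0 of 6 keratins passed the test of the line difference (adjusted p between 0.245 and 0.355), and that setting passed 1 of 12381 genes. At a limit of 1.5-fold, 2 keratins differed in Li-7, KRT80 and KRT23, with both KRT23 values under the background limit. The remaining 30 recomputed counts stayed within 1.5 times of the reported ones. Line differences kept their sign under all 11 alternatives run, but only quantile normalization, median centring and cyclic loess could move them. The other settings leave the estimates of these keratins as they are, so the sign was fixed in advance there. The differences of KRT7, KRT18, KRT19, KRT80 and KRT23 lost their call with the ordinary t statistic alone. KRT23 was not tested in 2 of the 11, which filter more strictly. The 0 keratin calls for the mimic change held in each alternative, although over all genes the calls ran from 0 (without line in the model) to 465 (quantile normalization), against 52 as reported. Of those calls, 58.7% were lower after quantile normalization and 80.8% as reported. Median centring moved the median line difference of all genes to -0.101, from 0.025, and that of KRT8 to 0.721. The opposite signs in the lines held under quantile normalization, median centring and cyclic loess for KRT8, KRT18, KRT19 and KRT80, whereas KRT7 in HEP-G2 was at 0.016 after cyclic loess. The HMGA1 call was lost with the ordinary t statistic (adjusted p = 0.64) and without line in the model (adjusted p = 1).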
